A study of Mus musculus with 10 samples.

Results

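Among the 43346 genes in the table of raw read counts, 10 belong to the immediate early genes described here. They are the EGR zinc-finger factors *Egr1*, *Egr2* and *Egr3*, the FOS family genes *Fos*, *Fosb*, *Fosl1* and *Fosl2*, the JUN family genes *Jun* and *Junb*, and *Ier2*. Members were found by gene symbol, and the list was drawn up with the fold changes of both knockouts against wildtype in view. All values of the members in these contrasts, and in the contrast between the knockouts that follows from them, are therefore descriptions without a test.

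RNA was sequenced from O9-1 cells, a mouse cell line from the cranial neural crest that is tetraploid. The groups were 4 wildtype libraries (WT/1 to WT/4), 3 Kat5 knockout clones (Kat5/1 to Kat5/3) and 3 Ep400 knockout clones (Ep400/1 to Ep400/3). Kat5 is the histone acetyltransferase and Ep400 the ATPase of the Tip60/Ep400 chromatin remodeling complex, and both genes were edited with CRISPR/Cas9. All cells were kept on Matrigel in preconditioned medium that contained fetal calf serum and FGF2. Each knockout library is 1 clone that was grown from a sorted cell, and the clones differ in their alleles. All *Kat5* alleles and those of clone Ep400/1 carry frameshifts, whereas clones Ep400/2 and Ep400/3 also carry in-frame deletions in the ATP binding site of Ep400. The sources used here do not state that the wildtype cells were sorted or cloned, so that genotype and cloning cannot be told apart. In these bulk libraries, a lower share of cells with a transcript and less of it per cell cannot be told apart either.

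Immediate early genes are switched on within minutes after growth factors, serum or stress reach a cell, and their induction needs no new protein synthesis. Signals through the RAS-ERK cascade and actin dynamics converge on serum response factor, which binds CArG boxes together with ternary complex factors or MRTFs, and on CREB, which binds cyclic AMP response elements. FOS and JUN proteins pair to form the AP-1 factor, while EGR proteins bind GC-rich sites and are held back by the NAB co-repressors. The transcripts are short-lived, often through AU-rich elements in their 3′ untranslated regions.

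Between 30968945 and 48301792 reads were counted on genes per library, and levels are given as CPM, that is counts scaled to library size with TMM normalization. *Kat5* was at 30.5% to 43.1% of the wildtype mean in the Kat5 ko clones and *Ep400* at 34.3% to 38.5% in the Ep400 ko clones. Of 18 markers of the cranial neural crest, 13 had at least 1 CPM in every wildtype library, among them *Twist1*, *Snai2*, *Tfap2a* and *Sox9*, whereas *Sox10* and *Foxd3* had no counts. Markers of pluripotent cells summed to at most 0.0578 CPM, of epithelium to at most 4.80 CPM and of endothelium and blood to at most 8.03 CPM in any library, while those of glia and melanocytes reached 9.04 to 18.4 CPM and those of neurons 3.03 to 5.68 CPM in wildtype cells and 6.25 to 25.6 CPM in Ep400 ko clones. The summed level of the cranial neural crest markers was 1816 to 2056 CPM in wildtype cells, 1801 to 2082 CPM in Kat5 ko and 2693 to 3969 CPM in Ep400 ko clones, where 4 of 16 tested markers were called higher and 0 lower (1 without WT/4, 2 without WT/1, Ep400/2 or Ep400/3, and 5 without WT/3 or Ep400/1; 8.09% of all genes were called higher), and the part of this difference in the members' levels was not tested. Clone Kat5/1 stood apart by smooth muscle markers, whose sum was 685 CPM there against 0.461 CPM and 23.9 CPM in the other Kat5 ko clones and 5.87 to 16.7 CPM in wildtype cells. The number of genes called over the whole table for Kat5 was 67, against 2651 without this clone, but 1 without WT/1, 2 without WT/4 and 4 without Kat5/3.

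All members have few exons. In the transcripts with the longest coding sequence of the GENCODE M21 annotation, every member had at most 4 exons, as did 20.4% of the 12231 protein-coding genes that passed the filter on low counts. *Jun*, *Junb* and *Ier2* had 1 exon, and 2.57% of the protein-coding genes did. The transcripts of the members were not shorter, with a median of 3077 bases against 3034 among the protein-coding genes. Their 3′ untranslated regions had a median of 1208 bases against 993. The AU-rich pentamer ATTTA occurred at a median of 2.11 per kb of 3′ untranslated region among the members and of 1.23 per kb among the protein-coding genes. It was densest in *Fos*, with 4 copies at 4.91 per kb, whereas *Fosl2* had 8 copies at 1.72 per kb and *Ier2* had 0. *Fosl1*, *Jun* and *Junb* overlap genes on the opposite strand, namely *Ccdc85b*, *Junos* and *Prdx2*. The libraries were made with a stranded kit, but the strand setting of the counting is not given in the sources used here.

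Promoter windows of RefSeq (GRCm38.p6), from 250 bases before to 50 bases after a start site, were found for 6 of the 10 members, namely *Egr2*, *Fos*, *Fosb*, *Fosl2*, *Jun* and *Junb*. The other members, *Egr1*, *Egr3*, *Fosl1* and *Ier2*, are named without a sequence. Shown are the 250 bases before a start site of *Egr2* and *Fos*, which had the largest differences in the Ep400 ko clones among these genes, of *Fosb*, which had the largest in the Kat5 ko clones among those that passed the filter on low counts there, and of *Jun* for comparison. *Egr2* has 5 windows with partly shared sequence, and the one shown is among those that hold both a CArG box and half-sites. Capitals mark CArG boxes, the half-site TGACG of cyclic AMP response elements on either strand, the EGR motif GCGNGGGCG on either strand, and TATAAA on the strand of the gene. The windows lie at chr10:67537619-67537868 on the plus strand for *Egr2*, at chr12:85473640-85473889 on the plus strand for *Fos*, at chr7:19310046-19310295 on the minus strand for *Fosb* and at chr4:95052223-95052472 on the minus strand for *Jun*.
Egr2: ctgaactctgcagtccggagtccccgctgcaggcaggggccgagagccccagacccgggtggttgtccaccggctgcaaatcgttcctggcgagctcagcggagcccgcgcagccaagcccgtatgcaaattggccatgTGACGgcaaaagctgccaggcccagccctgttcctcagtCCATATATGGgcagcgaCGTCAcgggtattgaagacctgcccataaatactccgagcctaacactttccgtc
Fos: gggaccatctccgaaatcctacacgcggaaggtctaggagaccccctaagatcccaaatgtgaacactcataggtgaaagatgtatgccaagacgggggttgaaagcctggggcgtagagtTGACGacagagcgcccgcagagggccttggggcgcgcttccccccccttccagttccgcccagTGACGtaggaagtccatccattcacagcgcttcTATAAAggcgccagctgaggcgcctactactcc
Fosb: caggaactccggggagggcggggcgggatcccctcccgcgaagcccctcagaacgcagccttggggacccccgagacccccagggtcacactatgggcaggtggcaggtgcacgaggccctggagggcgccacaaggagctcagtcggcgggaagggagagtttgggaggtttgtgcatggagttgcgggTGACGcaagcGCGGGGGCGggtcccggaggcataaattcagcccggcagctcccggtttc
Jun: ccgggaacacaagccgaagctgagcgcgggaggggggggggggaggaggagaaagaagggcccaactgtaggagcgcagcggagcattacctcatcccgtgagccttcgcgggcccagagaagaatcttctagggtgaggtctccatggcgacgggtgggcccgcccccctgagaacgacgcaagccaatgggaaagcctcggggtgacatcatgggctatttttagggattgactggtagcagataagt

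In the windows of 300 bases, a CArG box occurred in 1 of the 6 genes, *Egr2*, in 4 of its 5 windows, and in 1.63% of all 32851 promoter windows. Counts below are per gene, so that a gene with several windows has more chances to hold a motif than a single window. The *Egr2* window shown above holds the CArG box CCATATATGG 72 bases before the start, next to a half-site on the opposite strand. The overlapping *Egr2* windows that begin at 67537620 and 67537680 hold this same site, and the one that begins at 67537316 holds CCTTTTTTGG. The half-site TGACG occurred in *Egr2*, *Fos*, *Fosb* and *Junb*, that is in 4 of the 6 genes, and in 20.8% of all windows. The EGR motif was present in *Fosb* and *Fosl2* and in 5.55% of all windows. TATAAA, searched on the strand of the gene, was found in *Fos* and *Junb* and in 8.32% of windows. The *Fos* match begins 33 bases before the start, whereas that of *Junb* begins at the start site itself, not upstream of it. The complete response element TGACGTCA and the AP-1 motif TGANTCA were found in 0 of the 6 genes, against 1.79% and 7.81% of all windows, and the *Jun* window held none of the marked motifs. The matches describe letters in these windows and do not show that a factor was bound. Sequence farther from the start sites was not searched, nor were *Egr1*, *Egr3*, *Fosl1* and *Ier2*. A motif that was not found here can therefore lie elsewhere at the same gene.

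In wildtype O9-1 cells, which were grown with serum and FGF2, the members covered a wide range of levels. Per kb of exon, *Fosl1* was the most abundant member at 69.3 ± 31.3 CPM per kb (SD, n = 4), followed by *Jun* at 61.7 ± 20.3 CPM per kb. *Fosl2*, *Junb* and *Ier2* followed at 24.7 ± 4.26, 22.7 ± 9.86 and 14.3 ± 2.33 CPM per kb. *Egr3* and *Egr1* were found at 2.07 ± 0.853 and 1.08 ± 0.258 CPM per kb, *Fosb* and *Fos* at 0.750 ± 0.241 and 0.424 ± 0.357 CPM per kb, and *Egr2* at 0.0357 ± 0.0133 CPM per kb. In this order, the ranges of neighbours overlapped except between *Jun* and *Fosl2*, between *Ier2* and *Egr3*, and between *Fos* and *Egr2*. Among the genes that passed the filter, *Fosl1* was at percentile 95.5, *Egr1* at 24.6, *Fos* at 15.5 and *Egr2* at 1.87. *Egr3* was at percentile 32.5 and *Fosb* at 20.8, whereas *Junb* was at 83.2 and *Ier2* at 73.8. The EGR genes, *Fos* and *Fosb* thus had low levels in wildtype cells, while *Fosl1*, *Jun*, *Fosl2*, *Junb* and *Ier2* had higher ones. Genes of the FOS family stood on both sides.

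**Figure D1:**
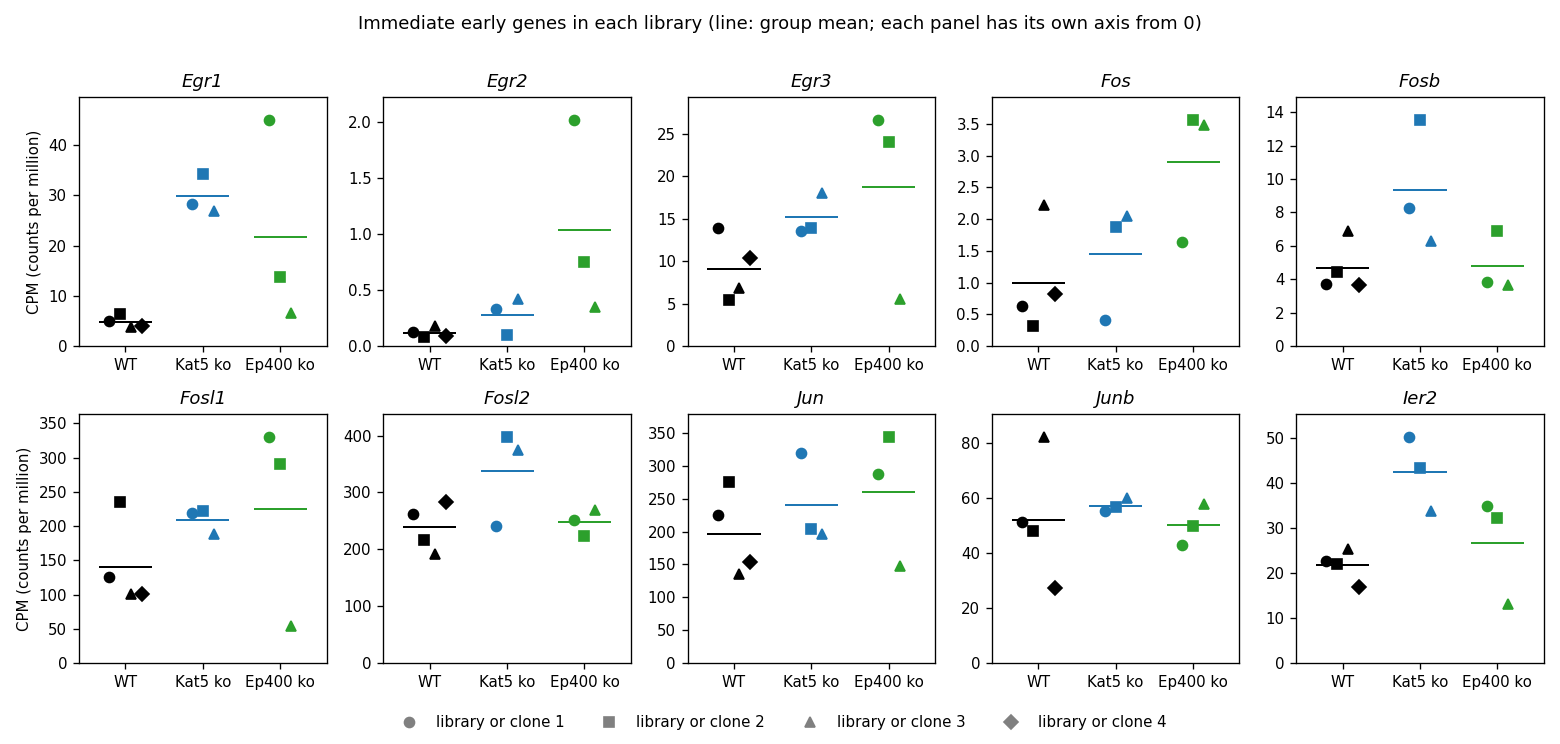
Level of each member in each of the 10 libraries, in CPM on a linear axis that starts at 0 and differs between panels. Black, blue and green mark wildtype, Kat5 ko and Ep400 ko, the marker shape gives the number of the library or clone, and lines are group means. All Kat5 ko clones lie above all wildtype libraries for *Egr1* and *Ier2*, and clone Ep400/3 lies below the other Ep400 ko clones for 7 members.

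*Egr1* had the largest log2-fold change of the members tested in Kat5 ko clones, and *Egr2* and *Egr1* had the largest in Ep400 ko clones. *Egr1*, a zinc-finger activator that growth factors induce, had 4.95, 6.42, 3.89 and 4.06 CPM in WT/1 to WT/4. It had 28.2, 34.2 and 26.8 CPM in clones Kat5/1 to Kat5/3, and 45.0, 13.7 and 6.67 CPM in clones Ep400/1 to Ep400/3. All 6 clones were above all wildtype libraries, the Kat5 ko clones lay close together, and the Ep400 ko clones spread over 6.74-fold. The log2-fold change against wildtype was 2.59 (standard error 0.23) in Kat5 ko and 2.17 (standard error 0.56) in Ep400 ko clones. With 1 library left out at a time, it was between 2.49 and 2.78 for Kat5. For Ep400, it was 1.07 without clone Ep400/1 and 2.60 without clone Ep400/3. *Egr1* lies on chromosome 18 from 34859823 to 34864984, and the genes of that chromosome were shifted together by a median of 0.31, −0.22 and 0.17 on the log2 scale in clones Kat5/1 to Kat5/3. With the chromosome median subtracted, the log2-fold change of *Egr1* in Kat5 ko clones was 2.45.

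*Egr2*, known from hindbrain patterning and from myelinating Schwann cells, was close to the limit of detection in wildtype cells. WT/1 to WT/4 had 4, 3, 7 and 4 counts, clones Kat5/1 to Kat5/3 had 12, 3 and 19 counts, and clones Ep400/1 to Ep400/3 had 86, 24 and 14 counts. As levels, this amounted to 0.0867 to 0.183 CPM in wildtype cells, 0.0989 to 0.419 CPM in Kat5 ko clones, and 2.02, 0.750 and 0.348 CPM in the Ep400 ko clones. All Ep400 ko clones were above all wildtype libraries, whereas clone Kat5/2 lay within the wildtype range. *Egr2* did not pass the filter on low counts for the comparison of Kat5 ko clones with wildtype cells. In Ep400 ko clones the log2-fold change was 3.07 (standard error 0.66), and 2.14 without clone Ep400/1.

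*Egr3*, a relative that shares the DNA-binding domain of *Egr1*, had 13.9, 5.49, 6.84 and 10.3 CPM in the wildtype libraries. Clones Kat5/1 to Kat5/3 had 13.6, 13.9 and 18.0 CPM, and clones Ep400/1 to Ep400/3 had 26.6, 24.0 and 5.60 CPM. Both groups of clones overlapped the wildtype range, and clone Ep400/3 lay near its lower end. The log2-fold changes were 0.70 (standard error 0.33) for Kat5 and 1.04 (standard error 0.52) for Ep400.

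Summed per kb of exon, the EGR genes reached 2.47 to 4.29 CPM per kb in wildtype libraries and 9.49 to 10.8 CPM per kb in Kat5 ko clones. In clones Ep400/1 to Ep400/3 the sum was 16.7, 8.73 and 2.86 CPM per kb. The make-up of the sum differed as well. *Egr1* contributed 25.7% to 52.9% in wildtype libraries, 58.7% to 70.6% in Kat5 ko clones and 35.0% to 60.2% in Ep400 ko clones. *Egr3* gave most of the remainder, with 46.1% to 73.4% in wildtype libraries.

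*Fos*, the canonical serum-induced partner of JUN, had 0.639, 0.318, 2.22 and 0.817 CPM in WT/1 to WT/4. It had 0.413, 1.88 and 2.05 CPM in clones Kat5/1 to Kat5/3, and 1.64, 3.56 and 3.48 CPM in clones Ep400/1 to Ep400/3. Clones Ep400/2 and Ep400/3 were above the wildtype range, which WT/3 widened, and the other 4 clones were within it. Against wildtype, the log2-fold change was 0.50 (standard error 0.73) for Kat5 and 1.53 (standard error 0.63) for Ep400. With 1 library left out, it ranged from 0.16 (without Kat5/3) to 1.25 (without WT/3) for Kat5 and from 1.23 (without WT/2) to 2.26 (without WT/3) for Ep400.

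*Fosb*, which also gives rise to a stable truncated protein in neurons, had 3.74, 4.42, 6.89 and 3.69 CPM in wildtype libraries. The Kat5 ko clones had 8.27, 13.5 and 6.28 CPM and the Ep400 ko clones 3.82, 6.87 and 3.66 CPM. Clones Kat5/1 and Kat5/2 exceeded the wildtype range, whereas no Ep400 ko clone did. The log2-fold change was 0.97 (standard error 0.35) in Kat5 ko clones and 0.03 (standard error 0.36) in Ep400 ko clones. The first was 0.62 without Kat5/2. The second had no stable sign, with values from −0.35 (without Ep400/2) to 0.27 (without WT/3) when 1 library was left out.

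*Fosl1*, which encodes the FOS relative FRA1 and is sustained by prolonged ERK activity, had 126, 235, 102 and 101 CPM in WT/1 to WT/4. Clones Kat5/1 to Kat5/3 had 220, 221 and 188 CPM. Clones Ep400/1 to Ep400/3 had 330, 290 and 54.8 CPM. The Kat5 ko clones were above WT/1, WT/3 and WT/4 but not above WT/2, and the Ep400 ko clones lay on both sides of the wildtype range. Against wildtype, the log2-fold change was 0.55 (standard error 0.29) for Kat5 and 0.67 (standard error 0.55) for Ep400. The value for Kat5 was 0.92 without WT/2, and that for Ep400 was 0.29 without Ep400/1, 0.44 without Ep400/2, 1.04 without WT/2 and 1.13 without Ep400/3. *Fosl1* lies on chromosome 19 from 5447547 to 5455946, whose genes had medians of −0.088, −0.20 and −0.31 in the Kat5 ko clones and of 0.29, 0.27 and 0.24 in the Ep400 ko clones. With these chromosome medians subtracted, its log2-fold change was 0.75 for Kat5 and 0.38 for Ep400.

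*Fosl2*, which encodes FRA2, had 263, 217, 193 and 283 CPM in wildtype libraries, 241, 398 and 374 CPM in Kat5 ko clones, and 251, 223 and 269 CPM in Ep400 ko clones. Clones Kat5/2 and Kat5/3 were above the wildtype range and all Ep400 ko clones were within it. The log2-fold change was 0.47 (standard error 0.21) for Kat5 and 0.05 (standard error 0.17) for Ep400, which became −0.01 with chromosome medians subtracted.

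Per kb of exon, *Fosl1* made up 62.3% to 83.2% of the FOS family in wildtype libraries, 69.5% to 80.4% in Kat5 ko clones and 47.4% to 85.6% in Ep400 ko clones. *Fosl2* supplied 16.2% to 36.5% in wildtype libraries and 13.7% to 48.9% in Ep400 ko clones, where the highest share was that of clone Ep400/3. *Fos* and *Fosb* together stayed minor, since *Fos* gave at most 2.61% and *Fosb* at most 1.53% in any library. FRA1 and FRA2 transcripts hence formed the bulk of the family in all 10 libraries, including those with high *Fos*.

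**Figure D2:**
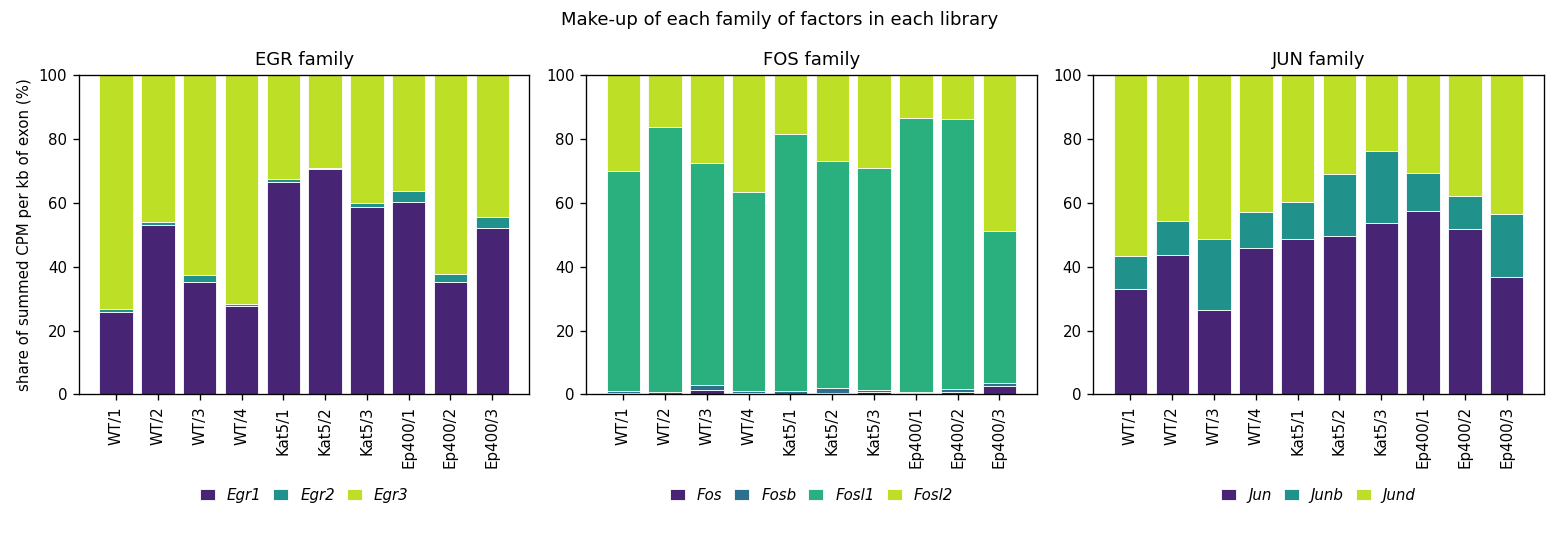
Share of each gene in the sum of its family, in % of CPM per kb of exon, for each of the 10 libraries. Bars are stacked to 100%. *Egr1* takes 58.7% to 70.6% of the EGR family in Kat5 ko clones, *Fosl1* is the largest part of the FOS family in all libraries but Ep400/3, where *Fosl2* is, and *Jund* is shown to complete the JUN family.

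In the JUN family, differences were small. *Jun*, the partner of FOS proteins and target of JNK, had 225, 274, 135 and 154 CPM in WT/1 to WT/4. It had 319, 204 and 197 CPM in clones Kat5/1 to Kat5/3, and 287, 344 and 147 CPM in clones Ep400/1 to Ep400/3. Clones Kat5/1, Ep400/1 and Ep400/2 were above the wildtype range and the others within it. Against wildtype, the log2-fold change was 0.26 (standard error 0.28) for Kat5 and 0.40 (standard error 0.33) for Ep400, and the value for Kat5 ranged from −0.0041 (without Kat5/1) to 0.48 (without WT/2) and that for Ep400 from 0.12 (without Ep400/2) to 0.68 (without Ep400/3) when 1 library was left out.

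*Junb*, often a brake on proliferation, had 51.3, 48.0, 82.3 and 27.3 CPM in wildtype libraries. The Kat5 ko clones had 55.2, 56.7 and 60.0 CPM and the Ep400 ko clones 43.0, 50.0 and 57.8 CPM. All clones were within the wildtype range, which was wider than that of either knockout. The log2-fold change was 0.10 (standard error 0.31) for Kat5 and −0.06 (standard error 0.32) for Ep400. The sign of either value changed when single wildtype libraries were left out, to −0.09 for Kat5 without WT/4 and to 0.24 for Ep400 without WT/3. For Ep400 the sign also changed without Ep400/1, and with chromosome medians subtracted, to 0.092. For Kat5 it also changed, to −0.065, in a fit with the replicate number as a block.

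*Jund*, the family gene that is expressed constitutively and is no member, made up 42.8% to 56.7% of the JUN family per kb in wildtype libraries, 23.8% to 39.9% in Kat5 ko clones and 30.6% to 43.5% in Ep400 ko clones. *Jun* supplied 26.4% to 45.9% in wildtype libraries, 48.5% to 53.6% in Kat5 ko clones and 36.6% to 57.5% in Ep400 ko clones. *Junb* contributed 10.4% to 22.3%, 11.6% to 22.6% and 10.4% to 19.9% in these groups. Its shares overlapped in all groups, whereas those of *Jun* and of *Jund* did not overlap between wildtype libraries and Kat5 ko clones. The levels of *Jun* itself overlapped between these groups, as given above. Those of *Jund* overlapped as well, at 44.9 to 122 CPM per kb in wildtype libraries and 27.4 to 82.2 CPM per kb in Kat5 ko clones.

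*Ier2*, which encodes a short nuclear protein induced by growth factors, had 22.8, 22.0, 25.3 and 16.9 CPM in WT/1 to WT/4. Clones Kat5/1 to Kat5/3 had 50.2, 43.2 and 33.8 CPM, all above the wildtype range. Clones Ep400/1 to Ep400/3 had 34.9, 32.2 and 13.2 CPM, the last of them below it. Against wildtype, the log2-fold change was 0.94 (standard error 0.20) for Kat5 and 0.30 (standard error 0.32) for Ep400. The latter was 0.058 without Ep400/1, 0.13 without Ep400/2, 0.19 without WT/4 and 0.62 without Ep400/3. With chromosome medians subtracted it was 0.45.

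**Figure D3:**
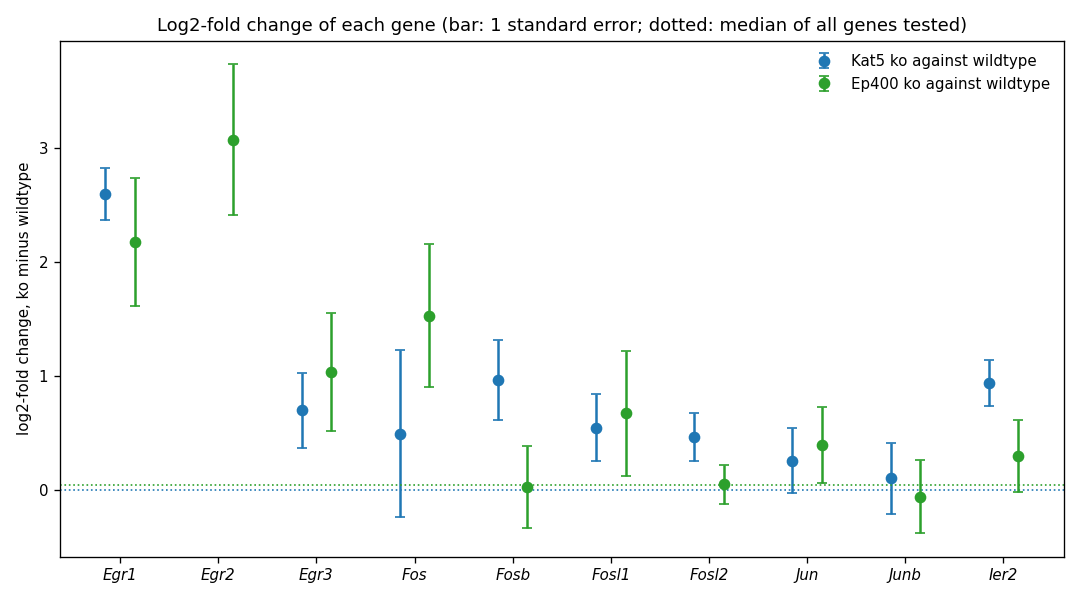
Log2-fold change of each member in Kat5 ko (blue) and Ep400 ko clones (green) against wildtype cells, with bars of 1 standard error. Dotted lines are the medians of all genes tested, and *Egr2* has no value for Kat5 because it did not pass the filter. *Egr1* has values of 2.59 and 2.17 and *Egr2* of 3.07 for Ep400, whereas *Junb* has values of 0.10 and −0.06.

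Counted over the members, 9 of 9 tested were higher in Kat5 ko clones than in wildtype cells, with a median log2-fold change of 0.55 against 3.24e-05 over all 13434 genes tested. For *Egr1* and *Ier2*, all Kat5 ko clones were above all wildtype libraries, as were 9.67% of the genes tested, and for 0 of the 10 members all were below, as were 10.2% of the genes. Genes were called where the quasi-likelihood test of edgeR gave an adjusted p up to 0.05. By this rule 1 member, *Egr1*, was called higher and 0 lower, while over all genes tested 0.127% were called higher and 0.372% lower. DESeq2 called *Ier2* as well, and in 1 fit of all libraries *Egr1* was not called. Since the members were selected on these contrasts, nothing is read from these counts. When single libraries were left out, *Egr1* was called in 5 of 7 fits, not without WT/1 or WT/4, and *Ier2* and *Fosl2* were called without clone Kat5/1.

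In the comparison of Ep400 ko clones with wildtype cells, 9 of 10 members were higher and *Junb* was lower, with a median log2-fold change of 0.54 against 0.043 over all 13836 genes tested. All clones were above all wildtype libraries for *Egr1* and *Egr2*, as were 16.1% of the genes tested, and below them for 0 members, against 14.1% of genes. *Egr1* and *Egr2* were called higher and 0 members lower, beside 8.09% of genes called higher and 5.76% lower. As for Kat5, this is a description of genes that were selected on the same contrast. *Egr1* was called in 2 of the 7 fits without a library, those without clone Ep400/2 or Ep400/3. *Egr2* was called in 4, those without WT/3 or any single Ep400 ko clone. *Egr3* was called without clone Ep400/3 and *Fos* without WT/3.

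Set directly against each other, the knockouts did not separate on any member. Of 10 members, 5 were higher and 5 lower in Ep400 ko than in Kat5 ko clones, with a median log2-fold change of −0.06 against 0.0063 over all 13587 genes tested. For all 10 members the groups overlapped, whereas Ep400 ko clones were all above the Kat5 ko clones for 20.5% of genes and all below for 18.0%. By edgeR's quasi-likelihood test, 0 members were called, against 4.34% of genes called higher and 2.97% lower, and 4404 genes had an unadjusted p under 0.05. The most positive values were those of *Egr2* at 1.83 (standard error 0.81) and *Fos* at 0.98 (standard error 0.66). The most negative were those of *Fosb* at −0.99 (standard error 0.44) and *Ier2* at −0.69 (standard error 0.38). *Egr1* had a value of −0.47 (standard error 0.62), which was −1.57 without clone Ep400/1 and −0.03 without clone Ep400/3. Both knockouts share their wildtype libraries, and their values against wildtype are therefore given side by side only.

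The Ep400 ko clones did not form a uniform group. Relative to the wildtype mean, the median log2 difference over the 10 members was 0.85 in clone Ep400/1, 1.00 in clone Ep400/2 and −0.06 in clone Ep400/3. It was 0.74, 0.75 and 0.66 in clones Kat5/1 to Kat5/3. Among the wildtype libraries it ranged from −0.28 to 0.08. The median over all genes was between −0.0080 and 0.050 in every library.

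Clone Ep400/3 had the lowest level of the Ep400 ko clones for 7 members, namely *Egr1*, *Egr2*, *Egr3*, *Fosb*, *Fosl1*, *Jun* and *Ier2*, and the highest for *Fosl2* and *Junb*. It was below the wildtype range for *Fosb*, *Fosl1* and *Ier2*, and above it for *Egr1*, *Egr2* and *Fos*. Clone Ep400/2 was above the wildtype range for 7 members and clone Ep400/1 for 6, and neither was below it for any. Each Kat5 ko clone exceeded the wildtype range for 5 members, and the clones had only *Egr1* and *Ier2* in common among them. Clone Ep400/3 also had the highest share of mitochondrial counts, at 3.24% against 0.893% to 2.43% in the other libraries, and its part in the levels was not tested.

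**Figure D4:**
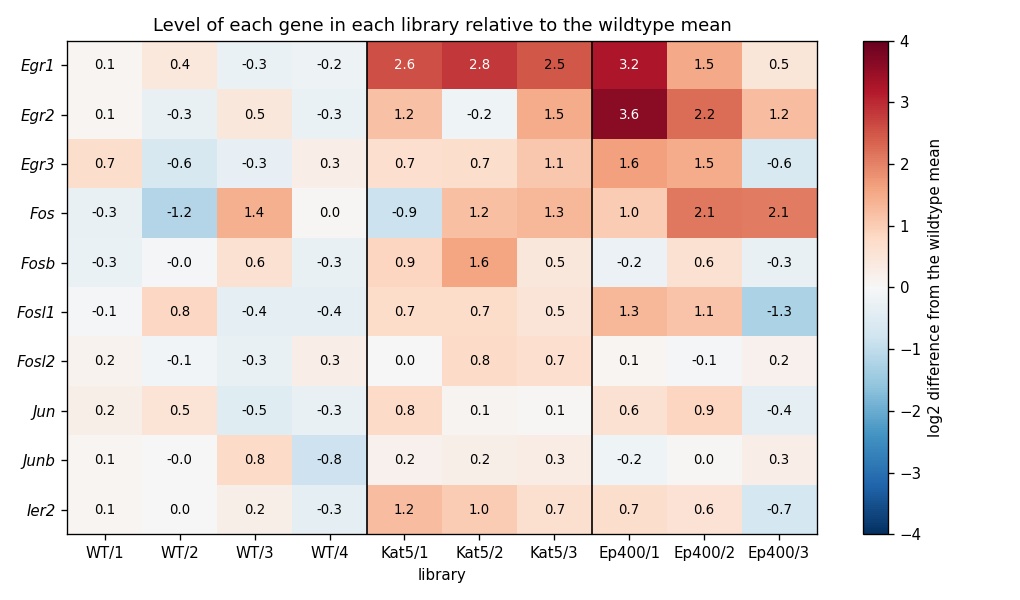
Log2 difference of each member from the wildtype mean in each of the 10 libraries, as color and number, with black lines between wildtype, Kat5 ko and Ep400 ko. *Egr1* is high in all Kat5 ko clones and in clone Ep400/1, and clone Ep400/3, with a median of −0.06 over the members, differs from clones Ep400/1 and Ep400/2, with medians of 0.85 and 1.00.

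After removal of the group means, members did not vary as a single block. Over the 45 pairs, Pearson's r of log2 CPM over the 10 libraries had a median of 0.098, with a range from −0.72 to 0.84, and 26 of the pairs were positive. *Fosl1* and *Jun* had an r of 0.84, *Fosl1* and *Ier2* of 0.84, *Egr1* and *Fosl1* of 0.83, and *Egr1* and *Ier2* of 0.72. At the other end were *Fos* and *Jun* at −0.72 and *Fosl2* and *Ier2* at −0.51. *Fos* thus ran apart from *Egr1*, *Fosl1* and *Jun* within groups, as in clone Ep400/3, where *Fos* was high and the others were low. These coefficients describe 10 libraries in 3 groups, and clones with an extreme level, such as Ep400/3, enter all pairs.

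Over all 10 libraries, the genes most like the mean standardized profile of the members were *Id1* with an r of 0.97, *Mafk* with 0.93, *Tssc4* with 0.93, *Fam133b* with 0.93 and *Slc35e4* with 0.92. *Id1*, an inhibitor of basic helix-loop-helix factors and target of BMP signals, had 8.70 to 15.6 CPM in wildtype libraries, 38.2 to 71.1 CPM in Kat5 ko clones and 17.1 to 53.5 CPM in Ep400 ko clones. *Mafk*, a small basic leucine zipper factor, had 19.5 to 22.5, 34.9 to 47.4 and 20.7 to 39.7 CPM in these groups. The genes most like *Egr1* alone were *Aven* with an r of 0.96, *Kdm8* with 0.96 and *Tspan4* with 0.95. These genes were picked as the highest r among all genes that passed the filter, and the points share libraries, groups and depth, so that the values are a description.

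The remaining EGR and AP-1 family genes, other immediate early genes and genes of the pathways around them were examined by edgeR's quasi-likelihood test with adjustment over all genes tested. These lists and the marker lists above were chosen with earlier results of these data known. Their calls and adjusted p are therefore no independent test. Over all genes, 0.127% were called higher and 0.372% lower for Kat5, 8.09% and 5.76% for Ep400, and 4.34% and 2.97% between the knockouts. Of the 9 remaining family genes that were tested, edgeR called 1 in either knockout. For Kat5, the count was 4 without clone Kat5/1 and 0 without any other single library, and DESeq2 called 1 higher and 2 lower. The fit without clone Kat5/1 called 2651 genes over the whole table, so nothing is read from the list counts in that fit, here or below. *Jdp2*, a repressor that dimerizes with JUN proteins, fell from 42.3 ± 5.66 CPM (SD, n = 4) to 19.7 ± 2.30 CPM (SD, n = 3) in Kat5 ko clones, with a log2-fold change of −1.13 and an adjusted p of 0.0414 from edgeR. In Ep400 ko clones it fell to 17.0 ± 3.08 CPM (SD, n = 3), with a log2-fold change of −1.32 and an adjusted p of 0.00508 from edgeR. The decrease was called in all 7 fits without a library for Ep400. For Kat5 it was called in 1 of 7, that without clone Kat5/1, with adjusted p of 0.00644 to 0.177 from edgeR.

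Among 48 other immediate early genes, 3 rose and 0 fell in Kat5 ko clones by edgeR, with a median log2-fold change of 0.25, whereas DESeq2 called 8 higher and 2 lower. *Ctgf* and *Cyr61*, secreted matrix proteins of the CCN family, rose by 2.83 (SE 0.45) and 1.82 (SE 0.30) on the log2 scale, for which edgeR gave adjusted p of 0.0466 and 0.0488. *Hbegf*, a ligand of the EGF receptor, rose from 53.9 ± 12.3 CPM (SD, n = 4) to 133 ± 26.0 CPM (SD, n = 3), which is 1.27 on the log2 scale (SE 0.20; edgeR, adjusted p = 0.0466). The count of 3 became 9 without clone Kat5/1, 2 without WT/2, 1 without WT/3 and 0 without WT/1, WT/4, Kat5/2 or Kat5/3. The log2-fold changes stayed positive in all these fits, between 2.07 and 3.23 for *Ctgf*, 1.62 and 1.99 for *Cyr61*, and 1.12 and 1.45 for *Hbegf*.

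In Ep400 ko clones, edgeR called 5 of the 48 higher and 4 lower, with a median of 0.18, beside the 8.09% and 5.76% of all genes given above, and DESeq2 called 7 higher and 6 lower. *Klf2*, *Klf4* and *Trib1* rose, with log2-fold changes of 2.24, 1.56 and 1.25 and adjusted p of 0.00455, 0.00911 and 0.0156 from edgeR. The first of these are Krüppel-like factors that restrain proliferation in many cells, and *Trib1* encodes a pseudokinase. *Lif*, a cytokine, *Plk2*, a kinase of the cell cycle and of stress responses, and *Cyr61* fell, with log2-fold changes of −2.54, −1.61 and −1.46 and adjusted p of 0.00788, 0.0162 and 0.0144 from edgeR. These 6 genes were called in all 7 fits without a library. The number of calls in the list was 6 without WT/1, WT/2, WT/4 or Ep400/2 and at most 12.

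Within this list, *Cyr61* and *Ctgf* set the knockouts apart, as did *Lif*. In the direct comparison, *Cyr61* was at 206 ± 54.2 CPM in Kat5 ko and 20.8 ± 0.317 CPM in Ep400 ko clones (SD, n = 3 each), or −3.33 on the log2 scale (SE 0.24; edgeR, adjusted p = 0.00659). It was called in 5 of 6 fits without a library, and at an adjusted p of 0.0588 from edgeR without clone Ep400/3. *Lif* had a log2-fold change of −3.11 and *Ctgf* of −2.74, at adjusted p of 0.0242 and 0.0355 from edgeR, and they were called in 3 and 1 of the 6 fits, respectively. *Nr4a3*, *Nr4a2* and *Socs3* were higher in Ep400 ko clones, with log2-fold changes of 4.23, 1.69 and 1.67 and adjusted p of 0.0303, 0.0321 and 0.0304 from edgeR, each called in 2 of 6 fits, those without Kat5/1 or Ep400/1. *Nr4a3* was close to the limit of detection, with 0.110 to 0.132 CPM in Kat5 ko and 0.727 to 3.21 CPM in Ep400 ko clones. In all, 5 of the 48 genes were higher and 6 lower. This count of 11 was 13 without Kat5/1, 8 without Ep400/1, 2 without Kat5/2, 1 without Kat5/3 or Ep400/2, and 0 without Ep400/3.

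Of 15 tested genes for serum response factor, ternary complex factors, MRTFs and CREB, edgeR called 0 in either comparison with wildtype cells, where 2993 (Kat5) and 4466 (Ep400) of all genes had an unadjusted p under 0.05, and DESeq2 called 0 as well. Without clone Kat5/1, edgeR called 2 for Kat5, beside 2651 genes over the whole table. Between the knockouts edgeR called 0, or 1 without Ep400/1, and DESeq2 called 1. Their medians were 0.08 for Kat5 and 0.09 for Ep400. Of the cytoskeletal targets of MRTF and serum response factor, 17 of 17 tested were higher in Kat5 ko clones, with a median of 0.45. EdgeR called 0 of them and DESeq2 called 4. In Ep400 ko clones 1 of 18 rose and 3 fell, with a median of 0.05, beside 8.09% of all genes called higher and 5.76% lower. *Fhl1* rose from 0.0261 to 0.265 CPM in wildtype libraries to 1.64 to 2.69 CPM, with a log2-fold change of 4.20, and *Fblim1*, *Fhl2* and *Flna* fell with values of −1.60, −1.12 and −0.73, at adjusted p of 0.00861, 0.00856, 0.00904 and 0.0215 from edgeR. *Flna*, encoding the actin crosslinker filamin A, was called in 4 of 7 fits, not without WT/1, WT/4 or Ep400/2. Between the knockouts, 17 of 19 tested targets were lower in Ep400 ko clones, with a median of −0.91. EdgeR called *Fhl2*, *Flna* and *Actg1* lower, at −1.79, −1.48 and −1.07, with adjusted p of 0.0288, 0.0313 and 0.0379 from edgeR. These calls held in 3, 1 and 1 of 6 fits without a library, and DESeq2 called 7 lower. *Nab2*, a co-repressor of EGR proteins, rose in Ep400 ko clones from 155 ± 48.9 to 395 ± 146 CPM, or 1.35 on the log2 scale (SE 0.31; edgeR, adjusted p = 0.0251). It was called in 3 of 7 fits without a library, not without WT/2, WT/3, WT/4 or Ep400/2.

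In the RAS-ERK cascade, 0 of 23 tested genes were called by edgeR in Kat5 ko clones, and DESeq2 called 1 higher and 3 lower. Without clone Kat5/1, edgeR called 7 of them, beside 2651 genes over the whole table. In Ep400 ko clones 2 of 22 rose and 1 fell, beside 8.09% of all genes called higher and 5.76% lower. The PDGF receptor gene *Pdgfra* rose from 123 ± 14.1 to 588 ± 64.7 CPM, or 2.25 on the log2 scale (SE 0.15; edgeR, adjusted p = 0.000966). *Pdgfrb* rose by 0.95 (adjusted p = 0.0491 from edgeR, called in 1 of 7 fits without a library), and *Rps6ka1*, encoding the ERK-dependent kinase RSK1, fell by 1.47 (adjusted p = 0.00741 from edgeR). Between the knockouts, edgeR called *Pdgfra*, *Pdgfrb* and *Fgfr1* higher in Ep400 ko clones and 0 genes lower. Their log2-fold changes were 2.88, 1.78 and 1.41, at adjusted p of 0.0242, 0.0233 and 0.0436 from edgeR, each called in 2 of 6 fits without a library. Of the 11 feedback genes and ETV targets, *Spry4*, an inhibitor of the cascade, rose by 1.25 and the ETS factor gene *Etv4* fell by 1.69 in Ep400 ko clones, at adjusted p of 0.0160 and 0.0386 from edgeR. *Spry4* was not called without WT/1, at an adjusted p of 0.0509 from edgeR, and *Etv4* was called in 1 of 7 fits without a library, that without Ep400/2. The list had 0 calls without WT/1, and DESeq2 called 4 higher and 1 lower. In the JNK and p38 cascade, *Mapk11* and *Map2k6*, encoding a p38 kinase and an activator of it, fell by 1.39 and 1.15 in Ep400 ko clones, at adjusted p of 0.0145 and 0.0188 from edgeR, and edgeR called none of the other 14 tested genes. Over all genes, 5.76% were called lower in these clones.

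Among 16 factors of AU-rich mRNA decay, *Cnot1* and *Cnot6* of the CCR4-NOT deadenylase fell in Ep400 ko clones, by 0.73 and 0.64, at adjusted p of 0.0145 and 0.0170 from edgeR. Over all genes, 5.76% were called lower there. *Cnot6* was not called without WT/4, and DESeq2 called 1 factor higher and 2 lower. In Kat5 ko clones edgeR called 0, or 1 without clone Kat5/1. Between the knockouts it called *Elavl1*, *Dcp2* and *Cnot6* lower in Ep400 ko clones, each in 1 of 6 fits without a library. Of 21 AP-1 target genes, *Timp1*, an inhibitor of matrix metalloproteinases, rose in Kat5 ko clones from 130.2 ± 14.2 CPM (SD, n = 4) to 248 ± 12.9 CPM (SD, n = 3), with a log2-fold change of 0.90 and an adjusted p of 0.0390 from edgeR, and was called in 1 of 7 fits without a library. *Timp3* and *Spp1* rose in Ep400 ko clones, with log2-fold changes of 2.87 and 0.77 and adjusted p of 0.00268 and 0.0462 from edgeR. Over all genes, 8.09% were called higher in these clones. *Spp1*, encoding osteopontin, was called in 1 of 7 fits, that without Ep400/1, and *Timp3* in all 7. Without clone Kat5/1, 6 of the AP-1 targets were called for Kat5, beside 2651 genes over the whole table. EdgeR called none of the other 20 and 19 AP-1 targets, whereas DESeq2 called 2 of the 21 higher and 2 lower in either knockout.

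Genes of heat shock and handling stress were examined beside the members, because immediate early genes also respond to handling. Of 14 tested genes, edgeR called 0 in Kat5 ko clones, or 6 without clone Kat5/1 (beside 2651 genes over the whole table), and DESeq2 called 1 lower. In Ep400 ko clones *Hspd1*, *Hspe1* and *Hsp90ab1* fell, with log2-fold changes of −1.02, −0.86 and −0.76 and adjusted p of 0.0266, 0.0364 and 0.0399 from edgeR, and each was called in 2 or 3 of 7 fits without a library. Over all genes, 5.76% were called lower in these clones. Between the knockouts, edgeR called *Hspa1a* higher and *Hsph1* lower in Ep400 ko clones. Their log2-fold changes were 1.96 and −1.32, at adjusted p of 0.0488 and 0.0434 from edgeR, each called in 1 of 6 fits without a library. *Hspa1a* had 0.573 to 1.18 CPM in Kat5 ko and 3.10 to 4.37 CPM in Ep400 ko clones. The summed level of the list was 10489 to 11922 CPM in wildtype libraries, of which *Hsp90ab1* alone gave 5338 to 5775 CPM. It was 9615, 15766 and 13531 CPM in clones Kat5/1 to Kat5/3, and 8409, 7281 and 5282 CPM in clones Ep400/1 to Ep400/3. Clone Ep400/3, lowest for 7 members among the Ep400 ko clones, had the lowest sum of all libraries. This sum mostly follows abundant chaperones, and its part in the members' levels was not tested.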

How the data were processed

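RNA of 4 wildtype libraries and 3 clones of each knockout was sequenced as stranded polyA libraries. The raw counts per gene were deposited by the authors for genome build mm10. The submitters' processing notes name bcl2fastq 2.20, STAR 2.7.3, DESeq2 1.36.0 and R 4.2.1. The program, annotation and strand setting of the counting are not given in the sources used here. The deposited normalized tables were not used.

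Counts were fitted with edgeR 4.0.16 in R 4.3.3 (filterByExpr, TMM, quasi-likelihood test) for each pair of groups, and a gene was called at a Benjamini-Hochberg adjusted p of at most 0.05 over all genes tested. Log2 CPM used a prior count of 2. Alternatives were DESeq2 1.42.0, other size factors, no filter, 1 fit of all libraries, a replicate block, subtraction of chromosome medians and leaving out each library. The fits were tested on simulated counts. Gene positions came from GENCODE M21, in which 42462 of 43346 gene IDs were found, and promoter windows from RefSeq.

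Members and gene lists were chosen with earlier results of these data known. From each other list, up to 3 called genes with the largest log2-fold change per direction and comparison could be named, and for likeness the 5 genes nearest to the mean member profile and the 3 nearest to *Egr1*. Depth was 30968945 to 48301792 counts per library, and the p-values measure the spread between clones and between wildtype samples.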

Additional observations from a re-analysis of the deposited data

How the results depend on the processing

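Directions of the members rested on single libraries where the values were small, and *Egr2* had at most 7 counts in a wildtype library, which limits the precision of its values. The number of genes called depended strongly on the settings, and the cause was not tested. For Kat5, 67 genes were called, against 1382 with DESeq2, 245 without a filter and 31 in 1 fit of all libraries. For Ep400, 1917 genes were called, against 3175 with DESeq2. Between the knockouts, 994 were called, against 3039 with DESeq2, 1803 without a filter and 3552 in 1 fit of all libraries.

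With 1 library left out, the count for Kat5 ran from 1 (without WT/1) to 2651 (without Kat5/1), and was 2 without WT/4, 4 without Kat5/3, 33 without WT/3 and 36 without Kat5/2. For Ep400 it ran from 826 (without WT/1) to 2016, with 873 without WT/4 and 1000 without WT/2. Between the knockouts it ran from 4 (without Ep400/3) to 2537 (without Kat5/1), with 5 without Kat5/3, 34 without Ep400/2, 81 without Kat5/2 and 368 without Ep400/1.

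The median log2-fold change of the members for Kat5 was 0.49 with library size alone, 0.63 without a filter and 0.68 with chromosome medians subtracted, and 0.51 to 0.77 with 1 library left out. For Ep400 it was 0.28 to 0.90 with 1 library left out. Between the knockouts it changed sign, to 0.054 with library size alone, and was −0.21 to 0.17 with 1 library left out (0.17 without Ep400/3).

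Deviations of same-numbered libraries correlated at −0.0957 to 0.223. Differently numbered libraries were not compared, so these values cannot decide whether replicate numbers pair the libraries. With the replicate block, edgeR called 0 genes for Kat5 (1989 had an unadjusted p under 0.05), 170 for Ep400 and 213 between the knockouts, and 0 members. The medians of the members were then 0.54, 0.27 and −0.24.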
